A study of Mus musculus with 4 samples.

Results

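The mitochondrially encoded genes are the 37 genes of the mouse mitochondrial chromosome (chrM), chosen by the mt- prefix of their symbols among the 55385 genes of the count table. They comprised 13 protein genes, 2 ribosomal RNA (rRNA) genes and 22 transfer RNA (tRNA) genes, and all 37 had a row in the table. The RNA came from granulosa cells (GCs), which nurse the oocyte and make steroids, of preantral follicles cultured for 6 days, and was sequenced in bulk. In 2 libraries (the NT4 group) the culture medium held neurotrophin-4 (NT-4), a ligand of the TRKB receptor, and in the other 2 (the Control group) it did not. The follicles of both groups were dissected from ovaries of female mice of the Kunming strain at an age of 12 to 14 days, and both groups shared a medium with follicle-stimulating hormone, fetuin, albumin and a supplement of insulin, transferrin and selenium. No genetic change is given for either group, Kunming is an outbred stock, and by the study's methods the GCs were those left after oocytes had been taken out. The comparison asks whether the NT-4 supplement changed the level or the composition of mitochondrial RNA in GCs at day 6.

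The mitochondrial genome is a small circle that is transcribed from both strands into long precursors. The tRNAs lie between most of the other genes, and their excision releases the mRNAs and rRNAs, after which most mRNAs receive a short poly(A) tail. The proteins are subunits of the respiratory chain and of ATP synthase, the rRNAs and tRNAs serve the translation of those mRNAs inside the organelle, and every other protein of the organelle is imported. In GCs the mitochondria also hold the enzyme that begins steroid synthesis from cholesterol. Nuclear chromosomes carry copies of mitochondrial DNA as pseudogenes, and a recent copy can be so alike that a short read from the mitochondrial transcript matches both places.

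The 4 libraries held 49520092 to 78704020 estimated counts each, of which 1 read pair made about 4. The granulosa markers (8 genes, among them Foxl2, Fshr, Amh and Inha) summed to 8410 to 12597 counts scaled to the library total (CPM), so the labelled cell type had its markers. Their sums split by replicate number, with 9662.5 in Control 1 and 8410 in NT4 1 below 11526 in Control 2 and 12597 in NT4 2. Inha (5855 to 8687 CPM) made the largest part of each sum. Amh split the other way, with 303 in Control 1 and 393 in NT4 1 above 151 in Control 2 and 89.6 in NT4 2. So did Kitl, with 137 and 145 above 114 and 122. The 10 oocyte markers summed to 76.6 to 109 CPM, the 4 endothelial markers to 18.6 to 27.6, the 4 macrophage markers to 0.976 to 1.74, the 5 erythroid markers to 3.23 to 5.67 and the 5 surface epithelium markers to 34.1 to 43.0. The 7 theca and stroma markers summed to 621 and 662 CPM in Control and to 896 and 808 CPM in NT4, so the groups did not overlap. By itself Col1a1 (160 and 157 CPM in Control, 258 and 158 in NT4) overlapped, as did Insl3 (5.61 and 14.3, 9.63 and 16.1), while the others of the list separated. Over all genes tested, 26.6% had groups that did not overlap in CPM. The part of these markers in the results below was not tested. In bulk RNA, fewer cells of a type and less RNA per cell cannot be told apart. The replicates came from separate experiments by the study's methods, and with 2 libraries against 2 an exact two-sided permutation test cannot go below a p of 0.333.

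As a whole, the 37 genes took 4.36% of all counts of Control 1 and 3.56% of those of Control 2, while NT4 1 had 3.997% and NT4 2 had 4.02%. Both NT4 libraries lay between the Control libraries. The mean share was 3.96% ± 0.57 (SD, n = 2) in Control and 4.01% ± 0.017 (SD, n = 2) in NT4, a difference of 0.049 percentage points that was smaller than the spread of the Control libraries. That difference became 0.453 points without Control 1 and -0.354 points without Control 2. The widest 95% Wilson interval of a total share, computed at 4 counts per read pair and for counting error alone, reached 0.0114 points to either side.

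Protein genes made up nearly all of it, at 4.32% and 3.51% of all counts for Control 1 and 2, and 3.94% and 3.97% for NT4 1 and 2. Within the mitochondrial counts their part was 98.6% to 98.97% in every library. The tRNA genes took 0.00847% and 0.00676% of all counts for Control 1 and 2, and 0.00763% and 0.00767% for NT4 1 and 2, and their part of the mitochondrial counts stayed between 0.190% and 0.194%. The rRNA genes took 0.0366% and 0.0426% of all counts in Control 1 and 2, and 0.0476% and 0.0432% in NT4 1 and 2. This was the class in which both NT4 libraries lay above both Control libraries, with means of 0.0396% ± 0.0042 (SD, n = 2) and 0.0454% ± 0.0031 (SD, n = 2). The difference of 0.0058 points was 0.0028 without Control 1, 0.0036 without NT4 1, 0.0080 without NT4 2 and 0.0088 without Control 2. Neither rRNA gene by itself separated the groups. The rRNA shares of Control 2 and NT4 2 lay close together. Their Wilson intervals, computed as for the total share, overlapped (0.0417% to 0.0435% and 0.0423% to 0.0441%). Among all genes tested, 26.6% had groups that did not overlap in CPM. How the libraries were selected for mRNA or depleted of rRNA is not given in the sources used here, and the rRNA shares describe what remained after that step.

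**Figure D1:**
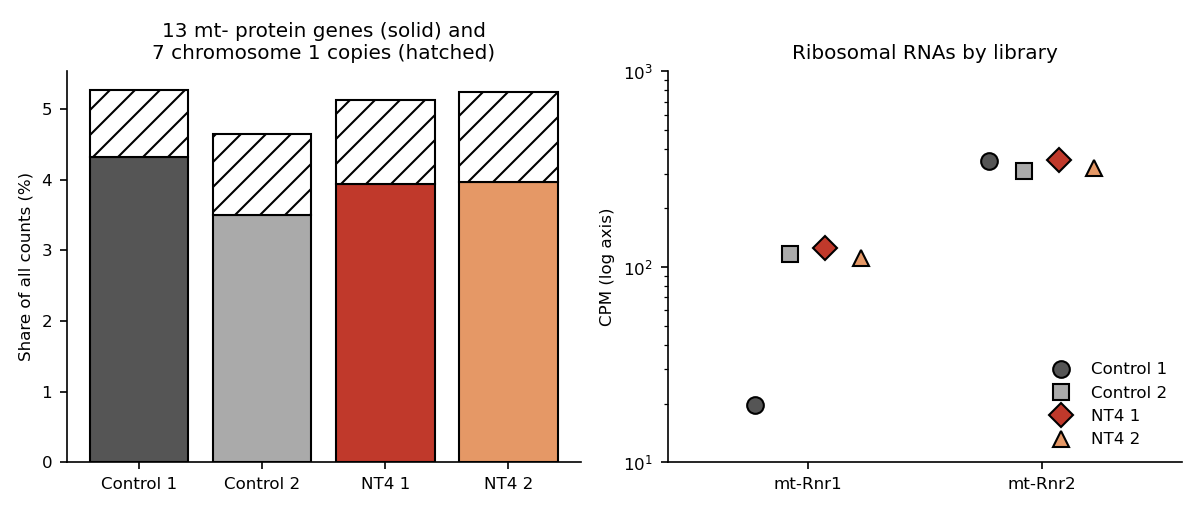
Left, the percent of all counts of each library on the 13 mt- protein genes (solid bars) and on 7 nuclear copies on chromosome 1 (hatched, stacked above), with the bars starting at 0. Right, the level of the 2 mitochondrial rRNAs in CPM on a log axis, 1 symbol per library, where mt-Rnr1 of Control 1 (19.6 CPM) lies apart from 111 to 125 CPM in the other 3.

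No mitochondrial gene was called as changed between the groups by the test across all genes. The quasi-likelihood test of edgeR was fitted on all 19259 genes that passed its filter on low counts, among them 33 of the 37 mitochondrial genes, and the 4 left out were the tRNA genes mt-Tf, mt-Tv, mt-Tq and mt-Tr. After Benjamini-Hochberg adjustment 0 of the 33 were called at 0.05, where 0% of all genes tested were called. At an unadjusted p under 0.05 the number was again 0 of 33, against 1.99% of all genes (383). The criterion of the study's methods, which asks for a fold change beyond 2 in either direction besides that unadjusted p, took 0 of the 33 and 1.08% of all genes (208). DESeq2's Wald test and edgeR's exact test, which called 65 and 59 genes in the whole table, also called 0 of the 33. The smallest unadjusted p among the 33 was 0.255, for mt-Th, and the edgeR adjusted p was 0.9999 for each. Of the 33 log2 fold changes (NT4 over Control), 21 were above 0 and 12 below, with a median of 0.028 beside 0.0045 over all genes tested. The median over the mitochondrial genes tested was 0.23 without Control 1 and -0.12 without Control 2. It was 0.090 without NT4 1, -0.0085 without NT4 2 and 0.0034 with library totals only, so no direction was read from it.

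Groups that did not overlap in CPM were seen in 6 of the 33, against 26.6% of all genes tested, so the share was below the background. They were mt-Nd5, mt-Tm and mt-Th with both NT4 libraries above Control, and mt-Ti, mt-Tw and mt-Ts1 with both below. Among the 13 protein genes the log2 fold changes ran from -0.10 to 0.083, and 13 of 13 were smaller than their own standard error (SE, 0.088 to 0.24). For mt-Nd1 and mt-Nd4 the sign of the fitted change (0.0058 and 0.0019) differed from that of the mean CPM, so no direction was read for either.

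**Figure D2:**
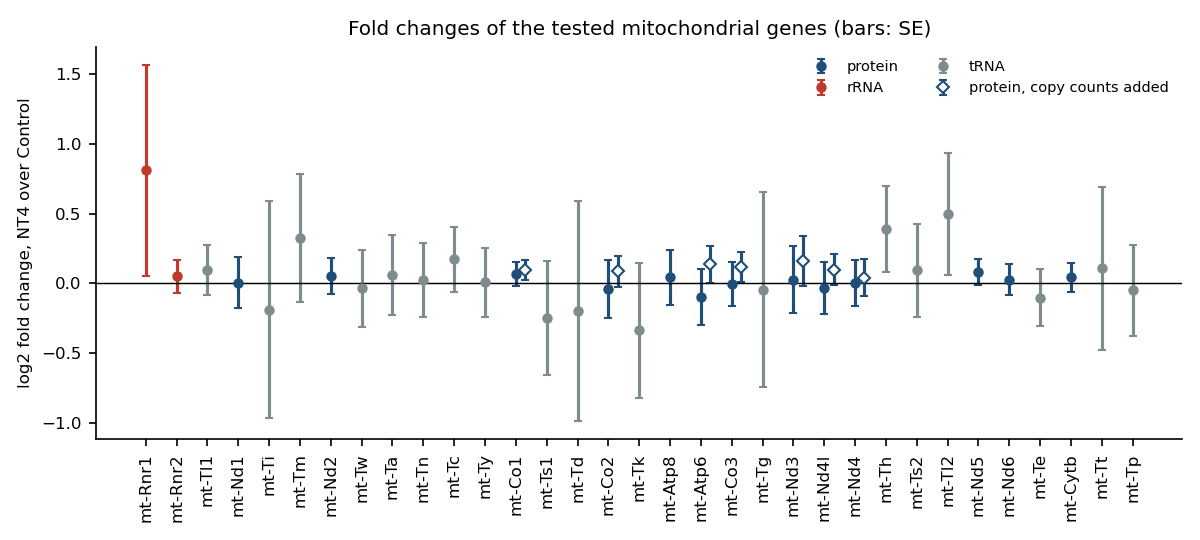
The log2 fold change of NT4 over Control for the 33 tested mitochondrial genes, in their order along the chromosome, with bars of 1 SE from the edgeR fit (filled points, coloured by class). Open diamonds give the protein genes after the counts of their chromosome 1 copies were added, and mt-Rnr1, at 0.81 with an SE of 0.76, has the longest reach above 0.

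The spread between the Control libraries had a direction of its own. Control 1 was the highest library for 12 of the 13 protein genes and Control 2 the lowest for 12 of the 13, and both NT4 libraries lay within the Control range for 11 of the 13. The ratio of the highest to the lowest library was between 1.08 (mt-Nd5) and 1.56 (mt-Co2). Levels are given below gene by gene in CPM, in the order Control 1, Control 2, NT4 1 and NT4 2, with positions from the GRCm38 annotation.

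Complex I (NADH dehydrogenase) takes electrons from NADH and has 7 mitochondrially encoded subunits, which together took 28.8% to 30.1% of the protein gene counts. mt-Nd1 (chrM:2751-3707, plus strand) stood at 3841, 2643, 3309 and 3104 CPM. mt-Nd2 (chrM:3914-4951) stood at 2064, 1658, 1896 and 1917 CPM. Both followed the common order, with Control 1 highest, Control 2 lowest and the NT4 libraries between. mt-Nd4 (chrM:10167-11544) stood at 3235, 2344, 2883 and 2621 CPM. mt-Nd4l (chrM:9877-10173) stood at 560, 393, 480 and 439 CPM. Its last 7 bases are also the first 7 of mt-Nd4, in another reading frame, so reads across that junction belong to both genes. mt-Nd3 (chrM:9459-9806) was the lowest of the 13 in CPM, with 245, 160, 181 and 225. mt-Nd5 (chrM:11742-13565), the longest gene of the set, stood at 2444, 2360, 2464 and 2551 CPM. This was the protein gene with the least spread and the one whose groups did not overlap, by a log2 fold change of 0.083 (SE 0.092, edgeR quasi-likelihood adjusted p = 0.9999). mt-Nd6 (chrM:13552-14070) is the protein gene on the minus strand, where its end overlaps that of mt-Nd5, and stood at 591, 538, 567 and 567 CPM.

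Complex III (the cytochrome bc1 complex) passes electrons to cytochrome c and has the mitochondrially encoded subunit cytochrome b. mt-Cytb (chrM:14145-15288) stood at 4658, 4099, 4350 and 4538 CPM, and its log2 fold change was 0.043 (SE 0.10). Complex IV (cytochrome c oxidase) hands the electrons to oxygen, and its 3 catalytic core subunits took 55.6% to 56.4% of the protein gene counts. mt-Co1 (chrM:5328-6872) was the most abundant of the 37 genes, with 17323, 15092, 16785 and 16663 CPM, or 40.1% to 43.0% of the protein gene counts. mt-Co2 (chrM:7013-7696) stood at 3313, 2128, 2581 and 2629 CPM and mt-Co3 (chrM:8607-9390) at 3368, 2567, 2738 and 3096 CPM. Control 1 was again the highest and Control 2 the lowest for each of the 3.

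Complex V (ATP synthase) makes ATP from the proton gradient, and its subunits 6 and 8 took 3.004% to 3.56% of the protein gene counts. mt-Atp8 (chrM:7766-7969) stood at 773, 524, 643 and 674 CPM. mt-Atp6 (chrM:7927-8607) stood at 764, 558, 541 and 675 CPM, the single protein gene with its lowest value in an NT4 library. The genes overlap by 43 bases, read in different frames. This overlap and that of mt-Nd4l with mt-Nd4, both between protein genes of the same strand, are shown because a read pair there cannot be given to 1 gene by its position. Each stretch is from the plus strand of GRCm38 and capitals mark the bases in both genes.
mt-Atp8/mt-Atp6 at chrM:7907-7989: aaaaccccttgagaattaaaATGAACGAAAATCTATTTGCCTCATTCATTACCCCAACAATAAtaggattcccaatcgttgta
mt-Nd4l/mt-Nd4 at chrM:10147-10193: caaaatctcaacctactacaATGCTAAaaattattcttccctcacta
In both, the capitals open with the start codon of the downstream gene and close with the stop codon of the upstream gene.

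Within the 13, the share of a gene in their summed counts removes the difference in the total. It differed between the group means by 0.0010 (mt-Nd3) to 0.70 percentage points (mt-Co1, 41.6% ± 2.1 in Control and 42.3% ± 0.43 in NT4, SD, n = 2). The difference for mt-Co1 was -0.76 points without Control 1 and 2.16 points without Control 2, so it rested on single libraries. For 1 of the 13, mt-Nd2, both NT4 libraries (4.81% and 4.83%) lay above both Control libraries (4.78% and 4.73%), fewer than the 26.6% of all genes tested whose groups did not overlap in CPM. When the counts of the nuclear copies described further on were added, the groups overlapped for mt-Nd2. In that sum the groups separated instead for mt-Cytb (8.84% and 8.81% in Control, 8.49% and 8.67% in NT4) and for mt-Nd6 (1.12% and 1.16% in Control, 1.11% and 1.08% in NT4), both lower in NT4, again a smaller part of the 13 than 26.6%. Neither gene gains counts in that sum, and their shares fall as the copies enlarge the total.

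The last bases of the genes show a feature that ties these mRNAs to their poly(A) tails. Of the 13 protein genes, 3 (mt-Co3, mt-Nd4 and mt-Cytb) are annotated with a lone T in place of a stop codon, which the tail completes. The last 30 bases of mt-Co1, which has its full stop codon, are set beside those of the 3, with capitals for the stop codon or its part.
mt-Co1 at chrM:6843-6872: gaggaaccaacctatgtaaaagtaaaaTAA
mt-Co3 at chrM:9361-9390: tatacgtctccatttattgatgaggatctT
mt-Nd4 at chrM:11515-11544: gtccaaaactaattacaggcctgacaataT
mt-Cytb at chrM:15259-15288: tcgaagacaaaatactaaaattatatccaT
The gene bodies were rich in A and T, with a G and C content of 31.9% (mt-Atp8) to 41.1% (mt-Nd4l).

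The genes of the chromosome are transcribed together, yet their levels per length differed widely. Expressed as CPM per kilobase of annotated gene and averaged over the 4 libraries, mt-Co1 was highest at 10657 and apart from the rest, since its lowest library (9768) exceeded the highest library of any other gene. mt-Co2 (3893), mt-Cytb (3856), mt-Co3 (3753), mt-Nd1 (3369) and mt-Atp8 (3203) followed, and each overlapped its neighbour in the order over the libraries. mt-Atp8 did not overlap the next group of mt-Nd4 (2011), mt-Nd2 (1815), mt-Nd4l (1576) and mt-Nd5 (1346), whose neighbours again overlapped. mt-Nd6 (1090) and mt-Atp6 (931) were lower and overlapped each other, and mt-Nd3 (583) was the lowest mRNA. This order leaves out the nuclear copies, and adding them changed it as described further on. The rRNAs were below every mRNA, mt-Rnr2 at 210 and mt-Rnr1 at 97.4 CPM per kilobase. mt-Atp8 and mt-Atp6 belong to a single mRNA in the cell, and here mt-Atp8 stood at 3203 and mt-Atp6 at 931 CPM per kilobase.

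**Figure D3:**
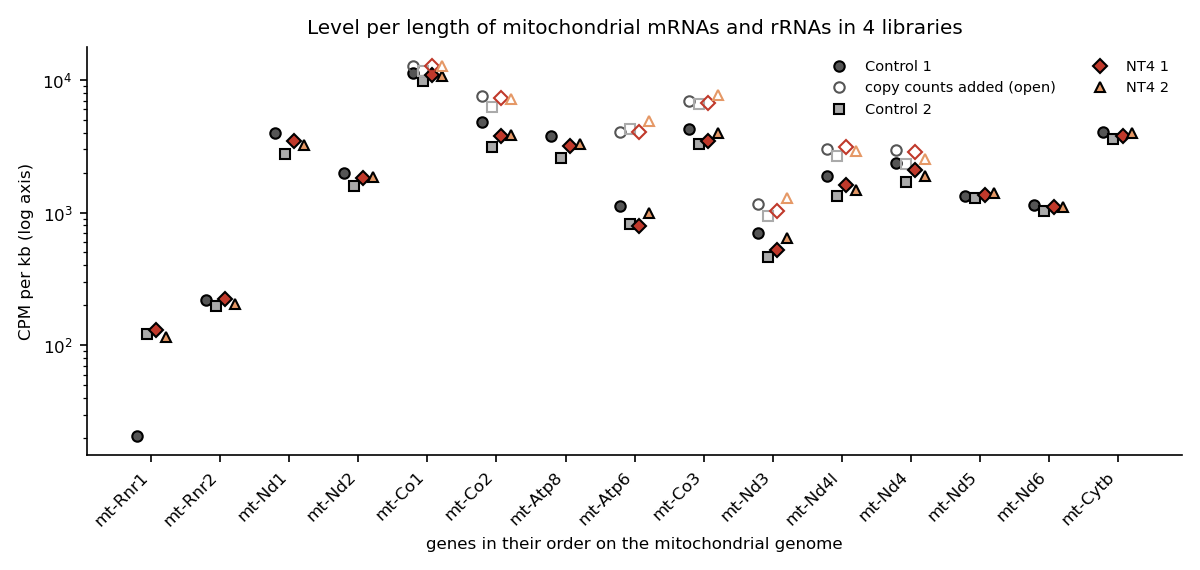
Level per length (CPM per kilobase, log axis) of the 2 rRNA genes and 13 protein genes, in their order on the chromosome and 1 filled symbol per library. Open symbols add the counts of the near-identical copy on chromosome 1 where 1 is annotated, which lifts mt-Atp6 from a mean of 931 to 4314 and leaves mt-Co1 the highest.

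Nuclear copies of mitochondrial DNA were counted as genes of their own in the table. A stretch of 4663 bases on the minus strand of chromosome 1 (chr1:24611535-24616197) holds 7 annotated unprocessed pseudogenes that match mitochondrial genes in the order of the mitochondrial genome. They are Gm29216 (of mt-Co1), Gm28661 (mt-Co2), Gm10925 (mt-Atp6), Gm28437 (mt-Co3), Gm28438 (mt-Nd3), Gm10222 (mt-Nd4l) and Gm28439 (mt-Nd4). Aligned with blastn, 5 of the 7 had no mismatch to their mitochondrial gene over the aligned bases and 2 had 1 mismatch. The copies of mt-Co1 and mt-Nd4 cover 483 of 1545 and 876 of 1378 bases of the gene, and the other 5 cover 98.99% to 99.87% of it. No pseudogene of mt-Atp8 is annotated, although its place between mt-Co2 and mt-Atp6 lies inside the stretch and its last 43 bases are the first of Gm10925, so it cannot be taken as free of a nuclear copy.

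The sequences show how little separates the pairs. The opening 60 bases of mt-Co3 are also those of Gm28437, and reads from either place carry this run.
mt-Co3 at chrM:8607-8666 and Gm28437: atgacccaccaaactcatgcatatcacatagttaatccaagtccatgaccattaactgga
The alignment of Gm29216 began at its base 10, so the bases before it were not compared. Both mismatches within the aligned bases are shown with the differing base in capitals, the nuclear copy read from the minus strand.
mt-Co1 at chrM:6390-6418: ggaAttgttttatccaactcatcccttga
Gm29216 at chr1:24616160-24616188: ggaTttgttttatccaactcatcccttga
mt-Nd3 at chrM:9459-9486: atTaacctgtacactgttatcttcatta
Gm28438 at chr1:24613092-24613119: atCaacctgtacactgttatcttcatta
Counted from 1 at the first base of the mitochondrial gene, with the base of the gene first and that of the copy last, these are A1066T in mt-Co1 and T3C in mt-Nd3.

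The table gave these copies large counts. Together they took 0.951% and 1.14% of all counts for Control 1 and 2, and 1.18% and 1.27% for NT4 1 and 2, on top of the mitochondrial share. Of the counts on mt-Co2 and Gm28661 together, the copy held 36.2% (Control 1), 50.4% (Control 2), 48.2% (NT4 1) and 46.8% (NT4 2). For mt-Co3 and Gm28437 it was 37.7%, 50.5%, 48.0% and 49.0% in the same order. mt-Nd3 with 39.3%, 51.4%, 49.1% and 50.04%, and mt-Nd4l with 37.7%, 50.3%, 48.2% and 48.9%, showed the same picture. In each of these pairs Control 1 stood apart with the lowest part on the copy, while the other 3 libraries were near the 49.5% to 49.9% that an even division over the aligned length would give.

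The partial copies took less, 11.4%, 16.0%, 15.1% and 16.0% for mt-Co1 against 15.6% under an even division, and 21.1%, 27.4%, 26.6% and 25.3% for mt-Nd4 against 31.8%. The pair of mt-Atp6 and Gm10925 departed from the others, since 72.3%, 80.7%, 80.4% and 79.8% of its counts were on the copy against 49.8%. Control 1 had the lowest part on the copy in 7 of 7 pairs. How reads that match several places were divided is not given in the sources used here, and whether any of these counts came from transcripts of chromosome 1 was not tested.

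**Figure D4:**
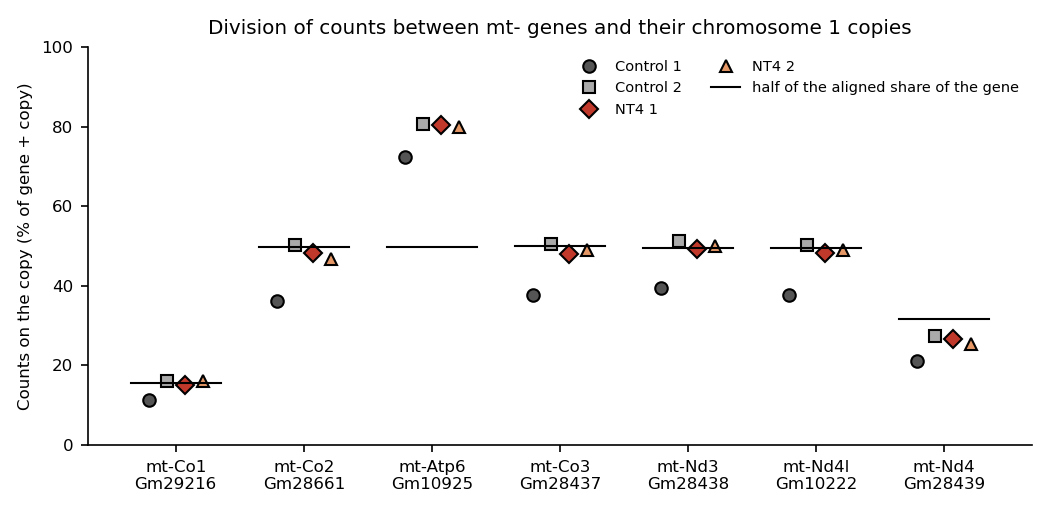
The percent of the counts of a mitochondrial gene and its chromosome 1 copy that fell on the copy, for 7 pairs and 4 libraries, with a line at the value of an even division over the aligned part of the gene. Control 1 is the lowest library in 7 of 7 pairs, and the mt-Atp6 pair lies above its line in every library.

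The copies were lowest where most of the genes were highest. In CPM, Control 1 was the lowest library for 7 of 7, and their log2 fold changes were all above 0, from 0.16 (SE 0.12, Gm28439) to 0.31 (SE 0.17, Gm28438). In 5 of the 7 both NT4 libraries exceeded both Control libraries, against 26.6% of all genes tested. The 7 lie in 1 stretch and are nearly identical to mitochondrial genes, so they were not taken as separate observations. The smallest unadjusted p was 0.0788 (Gm28661), and 0 of the 7 were called by the edgeR quasi-likelihood test, with an adjusted p of 0.9999.

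Adding each copy to its gene changed the order of the libraries and of the genes, and these sums per gene were chosen after seeing the data. Control 1 was then the highest library for 7 of the 13 protein genes instead of 12, and the highest-to-lowest ratio became smaller for 7 of 7 sums. For mt-Co2 with Gm28661 it went from 1.56 to 1.21, with summed levels of 5195, 4288, 4980 and 4944 CPM. The mitochondrial share of all counts with the 7 copies was 5.31%, 4.70%, 5.18% and 5.29%, and the highest library exceeded the lowest by 1.13 times instead of 1.23 times. Control 2 was the lowest library for 12 of the 13 in this sum as well. The log2 fold changes of the 7 sums lay between 0.043 and 0.16, and none was called by the edgeR quasi-likelihood test (adjusted p = 0.99999, smallest unadjusted p 0.225). For mt-Co2, mt-Atp6, mt-Co3 and mt-Nd4l the sign turned from below to above 0, with SEs of 0.11 to 0.13. In 1 of the 7 sums, that of mt-Co1, the groups did not overlap, with 19554 and 17971 CPM in Control and 19761 and 19848 CPM in NT4, a smaller part than the 26.6% of all genes tested.

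Per length, mt-Co2 (7093), mt-Co3 (6994) and mt-Atp6 (4314 CPM per kilobase) moved up to follow mt-Co1 (12481). mt-Atp6 went from rank 12 to rank 4 and its library range then overlapped that of mt-Cytb. The gap below mt-Atp8 (3203) was gone, since the range of mt-Nd4l (2925) overlapped those of mt-Atp8 and mt-Nd4 (2678). mt-Nd3 (1106) passed mt-Nd6 (1090), which became the lowest mRNA, and their ranges overlapped. The share of complex V among the 13 was then 6.65% to 7.68%, and that of complex I was 24.7% to 27.2%. The 6 protein genes without an annotated copy in the stretch (mt-Nd1, mt-Nd2, mt-Atp8, mt-Nd5, mt-Nd6 and mt-Cytb) had nothing to add under this sum, and their highest-to-lowest ratios were 1.08 to 1.47.

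Less similar copies elsewhere in the nuclear genome drew fewer counts than those on chromosome 1. The annotation held 10 more pseudogenes with at least 90% identity over at least 100 bases, with identities of 90.7% to 97.6%. Of these, 3 had no count in any library and 7 (those included) stayed below 1 CPM in each. The other 3 were Gm13340 (of mt-Co1), Gm13341 (mt-Co2) and Gm13339 (mt-Nd2), which lie on chromosome 2 and reached 3.65 to 51.3 CPM. Gm13341 stood at 12.2, 25.3, 9.20 and 31.0 CPM, high in Control 2 and NT4 2 and low in Control 1 and NT4 1.

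The rRNAs form the core of the mitochondrial ribosome, mt-Rnr1 in its small subunit and mt-Rnr2 in its large subunit. mt-Rnr2 (chrM:1094-2675) stood at 346, 310, 351 and 321 CPM, with a log2 fold change of 0.053 (SE 0.12). mt-Rnr1 (chrM:70-1024) stood at 19.6, 116, 125 and 111 CPM, from 970, 8567, 7759 and 8733 counts. Control 1 was 5.66 to 6.39 times lower than each of the other 3 libraries, which lay close together. The counts of mt-Rnr2 per count of mt-Rnr1 were 17.7 in Control 1 and 2.67, 2.80 and 2.89 in the others. Among the 4707 genes with a median of at least 50 CPM in the other 3 libraries, mt-Rnr1 ranked 4 from the lowest for its level in Control 1 relative to that median.

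The fold change of mt-Rnr1 rested on that library. Its log2 fold change was 0.81 (SE 0.76, edgeR quasi-likelihood adjusted p = 0.9999) with all libraries, 1.31 with the replicate number as a block (not called) and 0.028 without Control 1. Without Control 2, which leaves Control 1 as the sole Control library and assumes it varies like the NT4 group, it was 2.63 with an adjusted p of 0.0066 in the same test, the single call of a mitochondrial gene under the settings run. The low rRNA share of Control 1 described above goes with this gene, since its mt-Rnr2 level lay within the range of the other libraries. The opening 60 bases of mt-Rnr1, shown to place the gene, follow mt-Tf and an intervening base at the start of the chromosome numbering.
mt-Rnr1 at chrM:70-129: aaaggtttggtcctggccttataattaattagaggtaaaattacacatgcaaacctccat

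The 22 tRNAs decode the 13 mRNAs. Mature tRNAs are shorter than the fragments most mRNA libraries keep, and whether the counts on these genes came from tRNAs or from uncut precursors was not tested. They ranged from 0 to 28.0 CPM. The pair mt-Te, for glutamate, and mt-Tl1, for a leucine codon family, held 50.1% to 55.5% of all tRNA counts in each library. Their sequences are shown for this reason, each read on the strand of the gene.
mt-Te at chrM:14071-14139, minus strand: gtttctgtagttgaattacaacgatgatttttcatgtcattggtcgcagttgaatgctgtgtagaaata
mt-Tl1 at chrM:2676-2750, plus strand: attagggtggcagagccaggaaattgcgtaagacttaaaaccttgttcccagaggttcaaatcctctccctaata
mt-Te stood at 28.0, 20.5, 24.4 and 20.3 CPM, and its log2 fold change was -0.10 (SE 0.21). mt-Tl1, which lies between mt-Rnr2 and mt-Nd1 and touches both, stood at 19.0, 15.1, 17.8 and 18.2 CPM, a log2 fold change of 0.099 (SE 0.18). The groups overlapped for both genes.

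Per length, the tRNA genes of the minus strand stood above most of those of the plus strand. The median was 66.1 CPM per kilobase over the 8 genes of the minus strand and 9.12 over the 14 of the plus strand, and 6 of the 7 highest tRNA genes were on the minus strand. After mt-Te (338) and mt-Tl1 (234) came mt-Tn (90.2), mt-Ty (70.1), mt-Tc (69.8), mt-Ta (62.3) and mt-Tp (46.0 CPM per kilobase), all on the minus strand. mt-Tn, mt-Ty, mt-Tc and mt-Ta form a cluster between mt-Nd2 and mt-Co1, both on the plus strand. The libraries were made by a strand-marking dUTP method, and whether the counting used strand is not given in the sources used here. Of the minus-strand genes, mt-Ts1 (13.4) and mt-Tq (1.33 CPM per kilobase) did not follow the others.

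**Figure D5:**
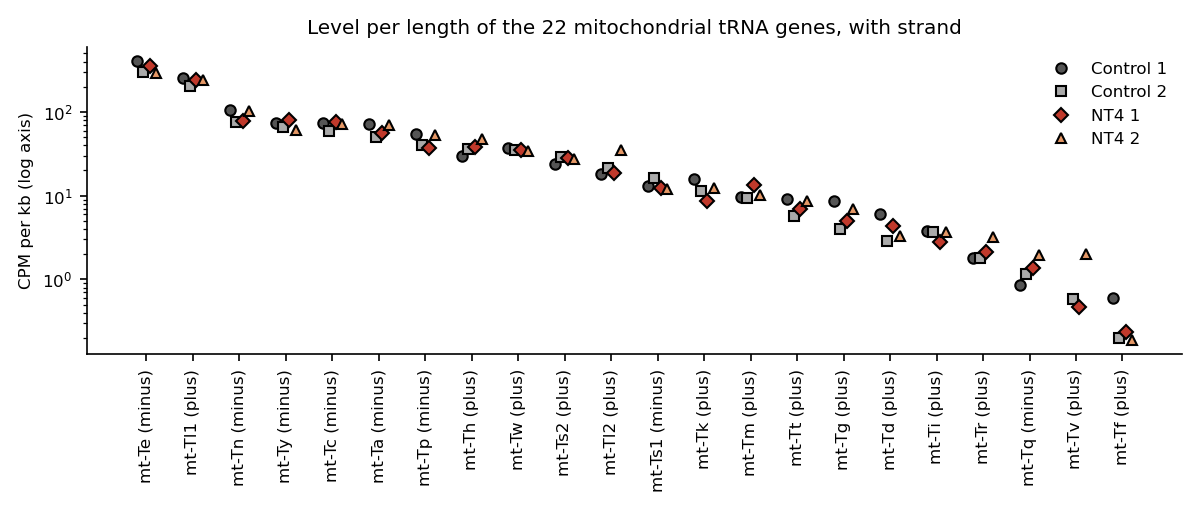
Level per length (CPM per kilobase, log axis) of the 22 mitochondrial tRNA genes in falling order of their mean, 1 symbol per library, with the strand of each gene in its label; values of 0 (mt-Tv in Control 1) are not drawn. Genes of the minus strand hold 6 of the 7 highest places.

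None of the 18 tRNA genes tested was called, and their counts limited what could be seen. A count of at least 40 in some library was reached by 15 of the 22. At 4 counts per read pair this would be about 10 read pairs. mt-Tf had 2, 1, 1 and 1 counts, less than that rule gives 1 read pair, so it need not hold for these short genes. mt-Th, for histidine, had 1.999, 2.44, 2.55 and 3.19 CPM, higher in both NT4 libraries, with a log2 fold change of 0.39 (SE 0.31). mt-Tl2, for the other leucine codon family, had 1.27, 1.51, 1.32 and 2.53 CPM, and its fold change of 0.50 (SE 0.44) came from NT4 2, which was apart from the other 3. mt-Tm, for methionine, had 0.666, 0.651, 0.920 and 0.712 CPM, with a log2 fold change of 0.32 (SE 0.46). mt-Ts1, for a serine codon family, had 0.909, 1.11, 0.855 and 0.826 CPM, lower in both NT4 libraries by a log2 fold change of -0.25 (SE 0.41). mt-Tw, for tryptophan, had 2.46, 2.37, 2.36 and 2.30 CPM, which separated the groups by a log2 fold change of -0.034 (SE 0.28). Of the 18 tested, 16 had a fold change smaller than the SE, and mt-Th and mt-Tl2 were the others.

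The other named tRNA genes overlapped between the groups. mt-Tn (asparagine) had 7.41, 5.41, 5.58 and 7.20 CPM and mt-Ta (alanine) 4.99, 3.51, 3.89 and 4.82 CPM, high in Control 1 and NT4 2. mt-Tc (cysteine) had 4.83, 3.91, 5.02 and 4.68 CPM, and mt-Ty (tyrosine) 4.97, 4.46, 5.32 and 4.04 CPM. mt-Tp (proline) had 3.61, 2.71, 2.47 and 3.53 CPM. mt-Ts2, for the other serine codon family, had 1.39, 1.72, 1.66 and 1.63 CPM, mt-Tk (lysine) 1.03, 0.746, 0.565 and 0.813 CPM and mt-Tt (threonine) 0.606, 0.380, 0.468 and 0.572 CPM. The remaining 7 (mt-Tg, mt-Td, mt-Ti, mt-Tr, mt-Tq, mt-Tv and mt-Tf) had 0 to 37 counts per library. mt-Tv had 0 counts in Control 1, which allows up to 0.242 CPM at 3 read pairs if each made 4 counts. It had 3, 2 and 11 counts in Control 2, NT4 1 and NT4 2, so no difference was detectable at this depth.

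The nuclear genes that maintain, transcribe, process and translate the mitochondrial genome gave no call either. Of 20 genes of mtDNA replication and maintenance, 7 had a log2 fold change above 0 and 13 below, 0 had an unadjusted p under 0.05 and the median was -0.031. Their groups did not overlap in 9 of the 20, against 26.6% of all genes tested. Polg, the catalytic subunit of the mtDNA polymerase, stood at 75.6, 93.3, 80.6 and 84.5 CPM, and Twnk, the replicative helicase, at 59.996, 61.2, 63.4 and 52.1 CPM. Mpv17 (0.21) and Slc25a4 (0.14), a carrier of ADP and ATP, lay above Control in both NT4 libraries, and the ligase gene Lig3 (-0.27) and the nuclease and helicase gene Dna2 (-0.31) lay below, as log2 fold changes.

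Of 17 genes of mitochondrial transcription, 9 were above 0 and 8 below, with a median of 0.044, and the groups did not overlap in 4 (23.5%, against 26.6% of all genes tested). Tfam, which packages mtDNA and starts its transcription, stood at 46.0, 42.9, 48.3 and 46.3 CPM, higher in both NT4 libraries by a log2 fold change of 0.11 (SE 0.13). Polrmt, the RNA polymerase, stood at 37.2, 41.1, 37.5 and 42.0 CPM and its partner Tfb2m at 29.8, 23.3, 36.4 and 19.9 CPM. The coactivator Ppargc1a was near 1 CPM or below it, with 1.29, 0.556, 1.16 and 0.623. Its relative Pprc1 stood at 82.0, 68.2, 40.2 and 51.0 CPM. Its log2 fold change was -0.70 (SE 0.18, edgeR quasi-likelihood adjusted p = 0.9999). Mterf4 (0.49) was the other gene the naming rule took.

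Of 35 genes of RNA processing, decay and modification, 16 were above 0 and 19 below, with a median of -0.023 and no overlap in 6 (17.1%, against 26.6%). Slirp and Lrpprc form the complex that stabilises the mitochondrial mRNAs. Slirp stood at 41.2, 27.7, 47.3 and 62.1 CPM, and Lrpprc at 134, 133, 148 and 112 CPM. The log2 fold change of Slirp was 0.69 (SE 0.25, edgeR quasi-likelihood adjusted p = 0.9999). Thg1l (-0.15) and Trit1 (-0.14), both tRNA-modifying enzymes, lay below Control in both NT4 libraries. Of 23 aminoacyl-tRNA synthetase and amidotransferase genes, 8 were above 0 and 15 below, with a median of -0.012 and no overlap in 9 (39.1%, against 26.6% of all genes tested). Pars2, which charges the proline tRNA, stood at 6.83, 8.27, 4.73 and 2.99 CPM. Its log2 fold change was -0.96 (SE 0.29, edgeR quasi-likelihood adjusted p = 0.9999). Pprc1, Slirp and Pars2 were the 3 genes of the 5 lists with an unadjusted p under 0.05, a level that 1.99% of all genes tested reached. Wars2, which charges the tryptophan tRNA, stood at 17.2, 15.5, 14.4 and 4.54 CPM, and its log2 fold change of -0.78 rested on NT4 2, since it was -0.18 without that library and -1.82 without NT4 1. Qrsl1 (0.19) was also named by the rule. Of 17 translation factors, 9 were above 0 and 8 below, with a median of 0.011 and no overlap in 3 (17.6%, against 26.6%), and Taco1 (0.31), which serves the translation of mt-Co1, and Guf1 (0.14) lay above Control in both NT4 libraries.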

How the data were processed

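RNA of GCs from cultured follicles was measured in 4 libraries, grouped as Control (2) and NT4 (2) by their GEO labels. The deposited values are expected counts, estimated per gene and not normalized, which the authors obtained with Cutadapt, HISAT2 (mouse genome of Ensembl, mm10 per the labels) and StringTie with ballgown. Libraries marked strand with dUTP. The step from coverage to counts, the use of strand in counting and the division of reads that match several places are not given in the sources used here. Low counts sat at 4, 8 or 12 in 45.4% to 46.2% of genes with 1 to 12 counts, so 1 read pair was taken as 4 counts. That rule need not hold for short genes such as the tRNA genes. Intervals (95% Wilson) and the floor of 3 read pairs (0.152 to 0.242 CPM) rest on it and cover counting error only. The table and the single-library files were identical in 4 of 4 libraries.

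Group differences were fitted by the edgeR quasi-likelihood method (edgeR 4.0.16 under R 4.3.3, TMM factors, default filter on low counts, two-sided, Benjamini-Hochberg over 19259 genes). The deposited values are whole numbers, so no rounding was needed. An SE is the fold change divided by the square root of its F statistic. CPM are counts scaled to the library total. Symbols, positions and transcripts came from GENCODE M21 (GRCm38), in which 55144 of 55385 identifiers had a symbol. Copies were found with blastn 2.17.0 (identity of at least 90% over at least 100 bases). The script was tested on simulated counts. Members and lists were chosen with earlier results of these data known. All 13 protein genes, both rRNAs and tRNAs with a count of at least 40 in any library were named. From each nuclear list (5 lists, of 20, 17, 37, 23 and 18 genes, of which Prorp, Fastkd4 and Mtres1 were not matched) the rule took up to 2 higher and 2 lower genes of smallest p with non-overlapping groups and a mean of at least 1 CPM, besides 8 fixed genes; a gene the rule took is not reported here. Alternatives were other scalings, filters, tests, sums of overlapping genes, a replicate block and leaving out each library. No deposited column of the authors' own comparisons was used.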

Additional observations from a re-analysis of the deposited data

How the results depend on the processing

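No mitochondrial gene was called in any of the 13 fits of all 4 libraries, and leaving out each library in turn gave 1 call, mt-Rnr1 without Control 2 (log2 fold change 2.63, range 0.028 to 2.63, 0.028 without Control 1). In the whole table the count of genes past the adjusted threshold went from 0 to 10 with no filter, 65 with DESeq2's Wald test and 59 with edgeR's exact test, and ran from 0 to 37 with a library left out (12 without Control 1, 37 without Control 2). The count under the study's criterion went from 208 to 345 with no filter, 87 with a CPM of at least 1 in 2 libraries and 119 with counts divided by 4, and ran from 341 to 512 with a library left out. The shares by class moved by less than the spread between libraries with the other denominators and with the copies added, but the total difference of 0.049 points was 0.109 with TMM effective sizes and 0.226 with the copies, and the protein difference of 0.044 was 0.103 and 0.220. Without Control 2 the differences of the total (-0.354 points), protein (-0.362) and tRNA (-0.00081) shares were below 0. The cause of these shifts was not tested. The low counts of most tRNA genes limit what could be detected there.

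Signs near 0 turned. With library totals only, mt-Nd1 was -0.016, mt-Nd4 -0.019, mt-Tn -0.0017 and mt-Ty -0.010. With the filter on CPM, mt-Nd1 was -0.00045 and mt-Nd4 -0.0039. mt-Nd4 was also -0.0018 with DESeq2 size factors and with DESeq2's Wald test, -0.0031 with upper-quartile factors, -0.0026 with size from nuclear genes and with counts divided by 4, and -0.0032 with overlapping genes summed. With copies summed, mt-Co2 was 0.087, mt-Atp6 0.14, mt-Co3 0.12 and mt-Nd4l 0.099, and the group difference in the share among the 13 became -0.060 points for mt-Nd2 and 0.17 points for mt-Atp6. With the replicate block, mt-Rnr1 was 1.31, mt-Co3 was 0.0063, mt-Ty -0.0013 and Ppargc1a 0.022. The replicate block gave 0 calls at the adjusted threshold, 580 genes at an unadjusted p under 0.05 (383 without it) and 4 of the 7 chromosome 1 copies at that p. Same-numbered libraries deviated together by a correlation of 0.14, which with 2 pairs does not show that the numbers pair the samples. The granulosa marker sums also split by number, and by the study's methods the cultures of all groups ran in parallel, so a pairing remains possible.

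With a library left out, log2 fold changes ran from -0.23 to 0.28 for mt-Nd1, -0.079 to 0.21 for mt-Nd2, -0.015 to 0.15 for mt-Co1, -0.31 to 0.30 for mt-Co2, -0.20 to 0.34 for mt-Atp8, -0.29 to 0.13 for mt-Atp6, -0.17 to 0.19 for mt-Co3, -0.23 to 0.35 for mt-Nd3, -0.25 to 0.23 for mt-Nd4l, -0.20 to 0.24 for mt-Nd4, -0.024 to 0.083 for mt-Nd6, -0.032 to 0.12 for mt-Cytb, -0.011 to 0.12 for mt-Rnr2 and, with its sign kept, 0.037 to 0.12 for mt-Nd5. The tRNA genes ran from -0.30 to 0.12 for mt-Te, -0.043 to 0.26 for mt-Tl1, -0.20 to 0.25 for mt-Tn, -0.19 to 0.18 for mt-Ty, -0.16 to 0.32 for mt-Ta, -0.35 to 0.20 for mt-Tp, -0.061 to 0.27 for mt-Ts2, -0.072 to 0.89 for mt-Tl2 and -0.18 to 0.46 for mt-Tt, and with their sign kept from 0.20 to 0.56 for mt-Th, 0.14 to 0.48 for mt-Tm, 0.041 to 0.32 for mt-Tc, -0.65 to -0.089 for mt-Tk, -0.047 to -0.022 for mt-Tw and -0.40 to -0.077 for mt-Ts1. The nuclear genes ran from -0.061 to 0.13 for Polrmt, -0.38 to 0.46 for Tfb2m, -0.17 to 0.16 for Polg, -0.18 to 0.064 for Twnk, -0.23 to 0.15 for Lrpprc, -0.52 to 0.68 for Ppargc1a and, with their sign kept, 0.092 to 0.31 for Mpv17, -0.39 to -0.13 for Lig3, -0.52 to -0.13 for Dna2, 0.23 to 0.80 for Mterf4, 0.45 to 0.99 for Slirp, 0.085 to 0.19 for Guf1 and 0.12 to 0.27 for Qrsl1. List medians moved beyond their error for mtDNA maintenance (-0.10 without Control 1), transcription (-0.040 without NT4 2), RNA processing (-0.067 without NT4 2) and translation factors (0.060 without Control 2, 0.10 without NT4 1 and -0.031 without NT4 2). The median of the synthetases was 0.012 without Control 2 and 0.016 without NT4 2.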
